A study of Mus musculus with 12 samples.

Results

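The genes described here encode 10 proteins that make serine and carry its carbon into folate metabolism, namely Phgdh, Psat1, Psph, Shmt1, Shmt2, Mthfd1, Mthfd2, Mthfd1l, Slc25a32 and Aldh1l2. They were chosen by name as a pathway, and all 10 were found among the 53762 gene symbols of the deposited count table. All 10 also passed the filter on low counts, as did 16945 symbols in all. RNA was sequenced from mouse T cells, with spleen as the labelled tissue, after co-culture with cells that the labels call Res. The 4 groups had 3 libraries each: T cells kept with Res_shFabp7 cells for 48 h, with Res_ctrl cells for 48 h, with Res_shFabp7 cells for 24 h and with Res_ctrl cells for 24 h. The Res_shFabp7 partner carried a short hairpin RNA against Fabp7, a fatty acid binding protein gene, and the Res_ctrl partner was its control, so the manipulation was in the partner and not in the T cells that were sequenced. All groups were kept in RPMI-1640 with serum and antibiotics. The mouse strain and age, the identity of the Res cells, the way T cells were separated from them and any activating stimulus are not stated in the labels. Whether the replicates are separate cultures or animals is not labelled either, so p-values reflect the spread among these libraries, which may be technical. The comparison named by the study is between T cells that met one partner or the other. The libraries of the times carry separate runs of library numbers in the labels, and whether they were prepared together was not given, so time and preparation cannot be told apart.

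Serine is made from the glycolytic intermediate 3-phosphoglycerate by PHGDH, PSAT1 and PSPH acting in turn. Serine hydroxymethyltransferase, as SHMT1 in the cytosol and SHMT2 in mitochondria, then moves a carbon from serine to tetrahydrofolate and releases glycine. In mitochondria MTHFD2 and MTHFD1L oxidise that carbon and release it as formate, and in the cytosol MTHFD1 puts formate back on folate for purine and thymidylate synthesis. SLC25A32 carries folate into mitochondria, and ALDH1L2 oxidises formyl-folate there to carbon dioxide. Activated T cells are known to raise this pathway when they grow and divide, and mitochondrial one-carbon genes are known targets of the transcription factor ATF4.

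Library totals lay between 31.9 M and 40.6 M counts. The labelled cell type had its markers: all 8 T cell markers were detected in every library, and their summed level was 1888 to 1941 CPM (counts per 1000000, TMM-scaled) with the shFabp7 partner and 1938 to 2005 CPM with the control partner at 48 h, and 2379.9 to 2529.7 CPM with the shFabp7 partner and 2515 to 2524 CPM with the control partner at 24 h. Fabp7 had 0 counts in all libraries but those of the control partner at 48 h, which had 3, 1 and 1 counts, and these say nothing of the knockdown in the partner cells. Replicate 3 of the control partner at 24 h stood apart in genes of the amino acid response. Of the 20 genes listed as ATF4 and its targets, 18 were higher in it than in the other replicates of its group and 14 were highest of all 12 libraries, against 33.6% and 6.84% of all genes tested. Replicate 2 of the shFabp7 partner at 24 h was likewise the highest of its group for 18 of the 20, but highest of all 12 for 1. Asns, asparagine synthetase, was at 102, 117 and 169 CPM in replicates 1, 2 and 3 of the control partner at 24 h, and Trib3, a pseudokinase induced by ATF4, was there at 8.21, 7.84 and 22.0 CPM. Of the 10 genes described here, 7 were highest of their group in control replicate 3 and 5 highest of all 12 (Psat1, Psph, Mthfd2, Mthfd1l and Aldh1l2). Where a value of these genes moved by over 1.5 times without that control library, it is given with and without it.

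**Figure D1:**
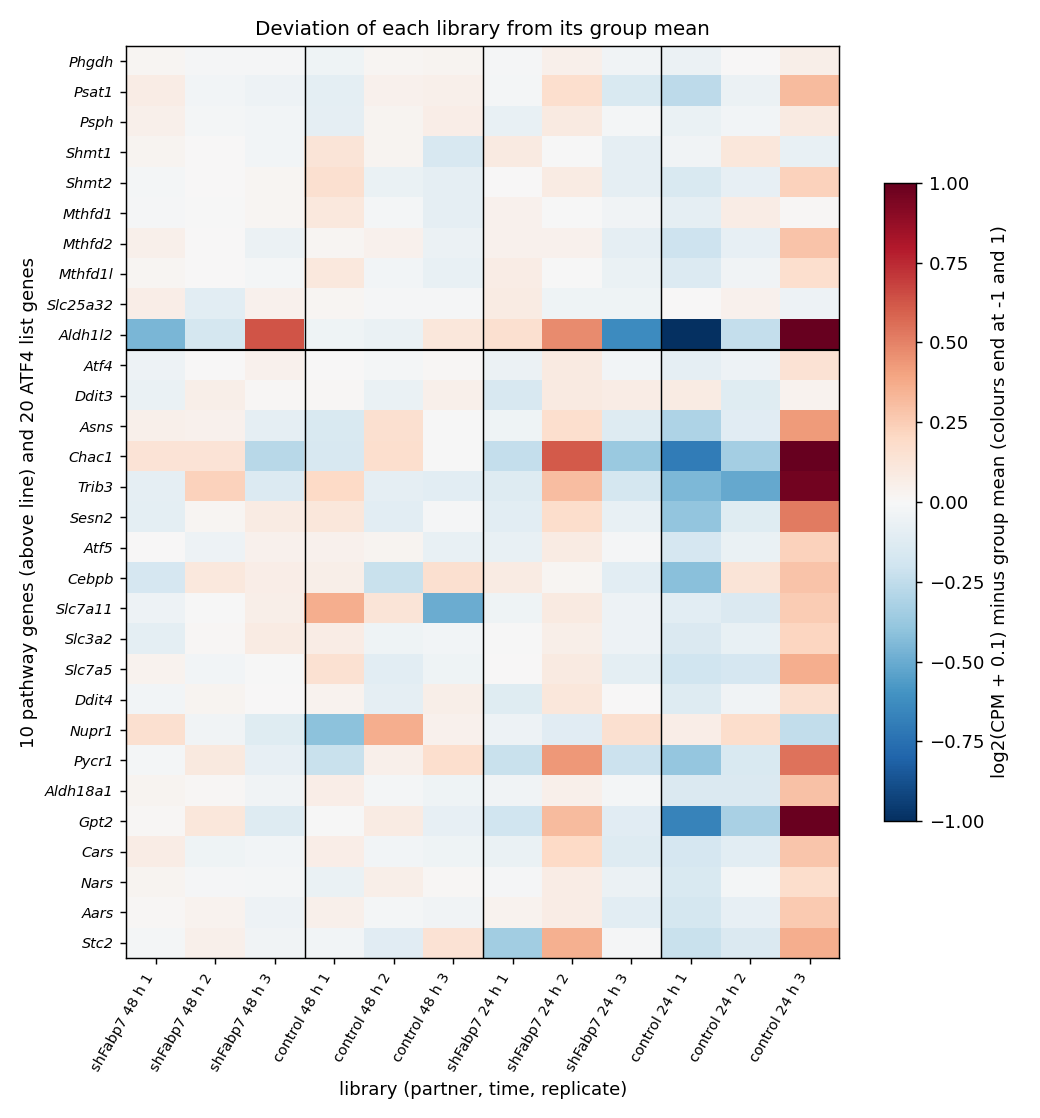
Deviation of each library from the mean of its group, as a difference of log2(CPM + 0.1), for the 10 genes (above the line) and 20 genes of the ATF4 list (below it), in 12 libraries. Red is above and blue below the group mean. Replicate 3 of the control partner at 24 h was the highest of its group for 18 of the 20 list genes and 7 of the 10 others.

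The promoters of 4 genes are printed, from either side of the threshold. Mthfd1 and Mthfd1l had higher transcript levels with the shFabp7 partner at 48 h and lower levels at 48 h than at 24 h. Mthfd2 and Psat1 passed the threshold in none of these comparisons in the main fit. That is a split in calls and not in sizes of effect. The Psat1 estimate between partners at 48 h (log2 0.24) was no smaller than that of Phgdh (0.22), which passed. Psat1 passed too in edgeR's fit of the 48 h libraries alone (adjusted p = 0.0038). Each window runs 250 bases before to 50 bases after the start site, 5′ to 3′ on the gene's strand, from RefSeq on build GRCm38.p6 (the submitters' processing notes name GRCm39), and capitals mark CCAAT or its reverse complement ATTGG. The windows are chr12:76254982-76255281, plus strand for Mthfd1, chr10:3972825-3973124, plus strand for Mthfd1l, chr6:83317555-83317854, minus strand for Mthfd2 and chr19:15925010-15925309, minus strand for the upstream of 2 Psat1 start sites.
Mthfd1: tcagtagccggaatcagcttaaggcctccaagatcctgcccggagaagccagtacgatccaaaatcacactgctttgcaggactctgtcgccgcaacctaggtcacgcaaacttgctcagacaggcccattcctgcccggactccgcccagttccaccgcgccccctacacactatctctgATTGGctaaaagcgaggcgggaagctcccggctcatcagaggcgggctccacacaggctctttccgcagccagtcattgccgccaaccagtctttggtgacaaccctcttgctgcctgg
Mthfd1l: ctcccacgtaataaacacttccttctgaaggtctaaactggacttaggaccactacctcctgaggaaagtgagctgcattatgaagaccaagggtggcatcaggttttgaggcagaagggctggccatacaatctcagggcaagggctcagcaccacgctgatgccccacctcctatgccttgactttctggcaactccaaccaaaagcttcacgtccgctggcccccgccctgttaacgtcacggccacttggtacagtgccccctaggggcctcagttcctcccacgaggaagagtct
Mthfd2: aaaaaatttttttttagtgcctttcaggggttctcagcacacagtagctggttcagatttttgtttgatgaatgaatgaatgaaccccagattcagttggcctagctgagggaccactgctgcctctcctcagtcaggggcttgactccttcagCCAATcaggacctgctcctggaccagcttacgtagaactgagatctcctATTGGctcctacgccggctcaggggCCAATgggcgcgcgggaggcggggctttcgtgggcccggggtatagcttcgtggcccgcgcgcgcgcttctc
Psat1: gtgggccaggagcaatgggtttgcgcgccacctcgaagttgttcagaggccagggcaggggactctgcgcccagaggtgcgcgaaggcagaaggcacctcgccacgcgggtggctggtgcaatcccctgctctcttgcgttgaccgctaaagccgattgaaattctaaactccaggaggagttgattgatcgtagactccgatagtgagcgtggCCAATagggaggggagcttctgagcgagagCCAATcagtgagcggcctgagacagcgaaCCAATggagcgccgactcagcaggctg

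RefSeq windows were matched for 8 of the 10 genes, and Slc25a32 and Aldh1l2 were the others. Of 4 motifs searched on both strands, CCAAT, the box bound by NF-Y, was the only one with a match, in 6 of the 8 genes, while 37.4% of 32851 mouse promoter windows of this length hold it. The Mthfd2 and Psat1 windows above have 3 copies each, and 3.37% of all windows have at least 3. The window of the other Psat1 start site has none. Phgdh and Psph have 2, Shmt1 and Mthfd1 have 1, and Shmt2 and Mthfd1l have none. A link between these copies and transcript levels was not tested. The E-box CACGTG, the ATF4-type element TGATGNAA and the cyclic AMP element TGACGTCA, which 7.15%, 3.97% and 1.79% of all windows hold, are not spelled in these windows. No 2 of the matches overlap, and a match describes letters, not a bound site.

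Levels between genes were compared per kilobase of the longest protein-coding transcript in GENCODE M21. Averaged over the 12 libraries, Shmt2 was highest at 147 CPM per kb, followed by Phgdh at 101, Mthfd1 at 70.3, Psat1 at 66.5 and Mthfd2 at 60.7 CPM per kb. Mthfd1l at 37.4, Shmt1 at 37.1 and Psph at 28.8 CPM per kb came next, then Slc25a32 at 7.44 and Aldh1l2 at 0.104 CPM per kb. Neighbours in this order overlapped in their ranges over the libraries, except that all libraries of Mthfd2 were above those of Mthfd1l, those of Psph above those of Slc25a32, and those of Slc25a32 above those of Aldh1l2. Phgdh has a pseudogene, Phgdh-ps1, with 28 to 50 counts a library, and reads shared with it may have been split or dropped. In GENCODE M21, exons of Psph, Shmt1, Shmt2, Mthfd1 and Aldh1l2 overlap those of an opposite-strand neighbour by 452, 184, 32, 37 and 1056 bases. Without a stated strand mode such reads cannot be told apart. Aldh1l2 has the longest overlap and the fewest counts, and the part of such reads in the counts of any of these genes was not tested. The order itself differed between groups. Shmt2 stood at 109.7 ± 1.38 CPM per kb with the shFabp7 partner and 81.3 ± 7.95 with the control partner at 48 h, beside 96.5 ± 1.32 and 83.1 ± 2.20 CPM per kb for Phgdh (SD, n = 3 each). At 24 h Shmt2 was at 211 ± 12.4 and 186 ± 27.2 CPM per kb with the shFabp7 and the control partner, well above Phgdh at 114 ± 3.41 and 109 ± 4.40. Together the 10 genes took 0.131 ± 0.00236% of all counts with the shFabp7 partner and 0.106 ± 0.00201% with the control partner at 48 h, and 0.161 ± 0.00763% and 0.152 ± 0.0155% with those partners at 24 h (SD, n = 3).

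**Figure D2:**
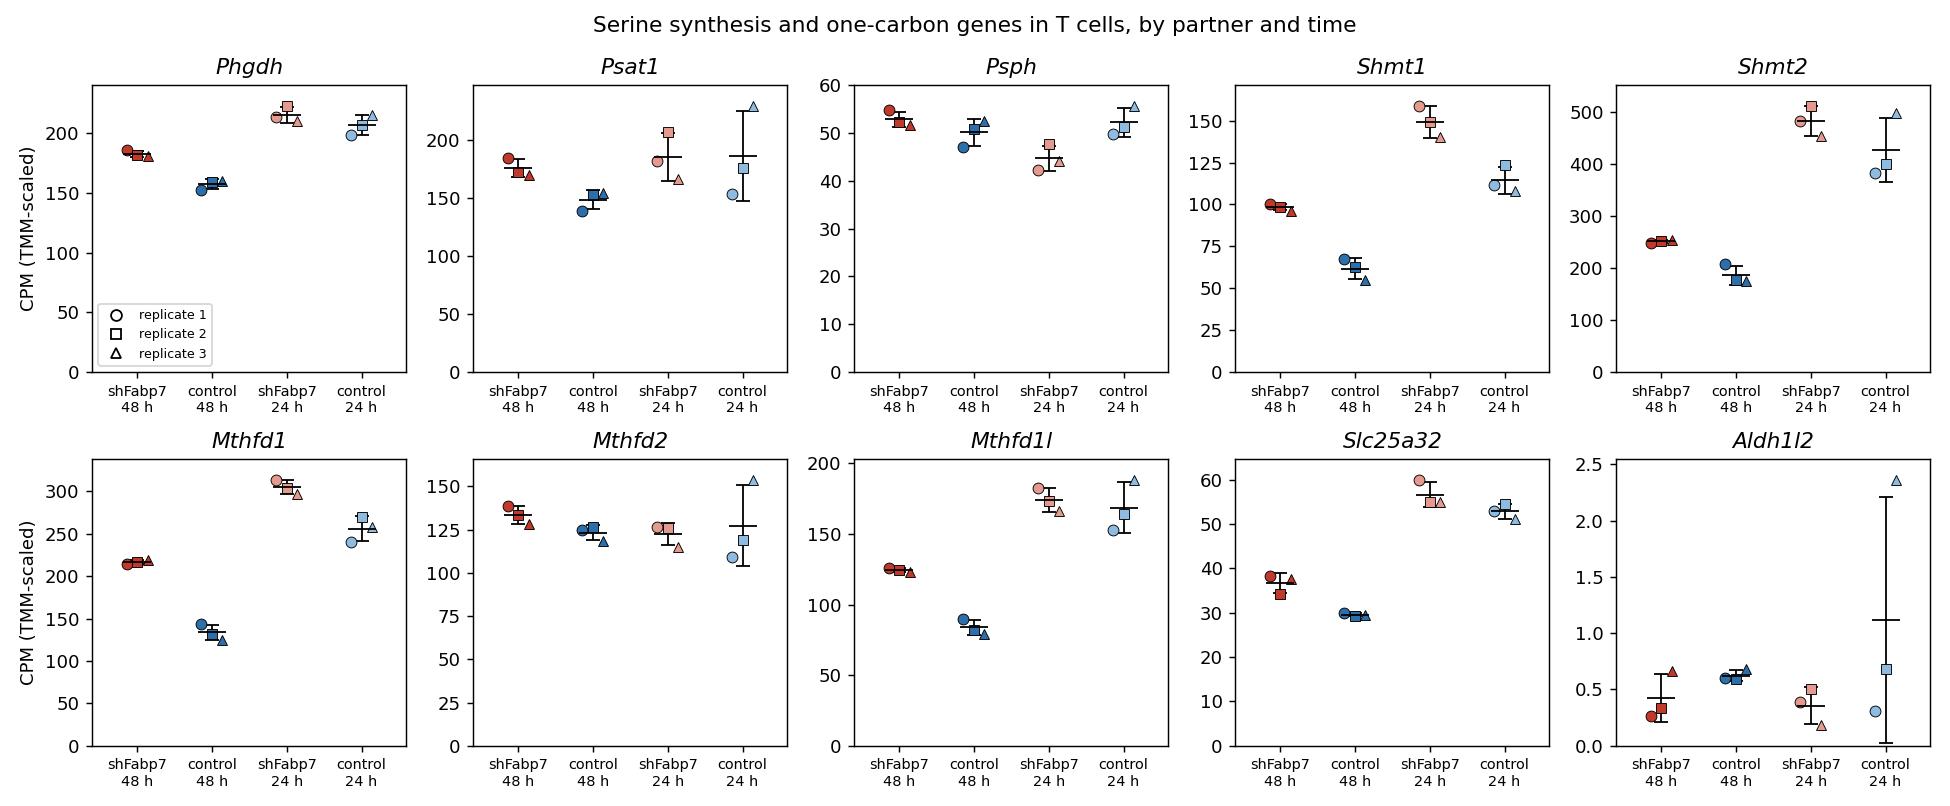
TMM-scaled CPM (vertical axis from 0) of each of the 10 genes in the 12 libraries, by group. Symbols are replicates, horizontal bars are means and whiskers are SD (n = 3). All 48 h libraries stand below all 24 h libraries for Phgdh, Shmt1, Shmt2, Mthfd1, Mthfd1l and Slc25a32. Libraries of Psat1, Psph, Mthfd2 and Aldh1l2 overlap between the times, although the Psat1 means of both 48 h groups are below those of both 24 h groups.

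At 48 h, most transcripts of folate-linked enzymes, cytosolic and mitochondrial, were more abundant beside the shFabp7 partner than beside the control partner, while Psat1, Psph, Mthfd2 and Aldh1l2 passed no threshold. Mthfd1 was at 216 ± 2.44 CPM with the shFabp7 partner and 134 ± 9.34 CPM with the control partner, and Shmt1 at 98.3 ± 1.83 CPM with the shFabp7 partner and 61.7 ± 6.24 CPM with the control partner (SD, n = 3 each). Of the 10 genes 6 rose and none fell, by edgeR's quasi-likelihood test with Benjamini-Hochberg adjustment over all 16945 genes (threshold 0.05), where 19.9% of all genes tested rose, 11.6% fell and 31.6% changed in either direction. That split depended on the scaling: 63.2% of all calls were higher with TMM, and between 39.9% (upper-quartile scaling) and 67.2% (DESeq2) under the alternatives, while all 6 of these genes stayed called and higher. The median log2 fold change was 0.28 over the 10 genes and 0.01 over all genes tested. Over genes with a mean above 10 CPM, which all of the 10 but Aldh1l2 had, that median was 0.07. The groups did not overlap for 8 of the 10, against 44% of all genes. In bulk RNA, a different number of cells of a kind and a different amount of RNA per cell cannot be told apart. In the same comparison 4 of the 8 T cell markers fell and none rose, and the part of this in the result was not tested.

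In serine synthesis, Phgdh, the first and committed step, had 186, 182 and 181 CPM in the 3 libraries of the shFabp7 partner, against 153, 159 and 160.2 CPM in those of the control partner. Every shFabp7 library was above every control library, and Phgdh rose by a log2 fold change of 0.22 ± 0.05 (adjusted p = 0.000771). The Phgdh estimate was smaller, at 0.13, and nearer the threshold with upper-quartile scaling (adjusted p = 0.0424) and with library totals alone (adjusted p = 0.0387). Psat1, the transaminase of the next step, had 185, 172 and 169.9 CPM with the shFabp7 partner and 139, 153 and 154 CPM with the control partner. Those groups did not overlap either, but the log2 fold change of 0.24 ± 0.14 missed the threshold (adjusted p = 0.23, 95% interval -0.07 to 0.55). Psat1 did pass it when the 48 h libraries were fitted by themselves (adjusted p = 0.0038), and with all libraries but control replicate 3 at 24 h (adjusted p = 0.0158). Psph, the phosphatase that releases serine, overlapped between partners, at 54.7, 52.2 and 51.8 CPM with the shFabp7 partner and 47.0, 50.9 and 52.4 CPM with the control partner (log2 0.08 ± 0.06, adjusted p = 0.355, 95% interval -0.05 to 0.20).

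Both serine hydroxymethyltransferase genes rose at 48 h. The cytosolic Shmt1 had 100.0, 98.6 and 96.4 CPM with the shFabp7 partner and 67.4, 62.8 and 55.0 CPM with the control partner (log2 0.67 ± 0.06, adjusted p = 1.64e-09). The mitochondrial Shmt2 had 248, 251 and 254 CPM with the shFabp7 partner and 207, 177 and 174 CPM with the control partner (log2 0.43 ± 0.08, adjusted p = 0.000558). For each of them the shFabp7 libraries lay close together and above a wider spread of control libraries.

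Among the folate-interconverting enzymes, the cytosolic trifunctional Mthfd1 showed the largest estimated rise of the 10, with 214, 216 and 219 CPM with the shFabp7 partner and 144, 132 and 125 CPM with the control partner (log2 0.70 ± 0.05, adjusted p = 2.55e-11). Mthfd1l, which releases formate in mitochondria, had 126, 125 and 123 CPM with the shFabp7 partner and 89.9, 82.1 and 79.4 CPM with the control partner (log2 0.57 ± 0.06, adjusted p = 1.57e-08). Mthfd2, the dehydrogenase and cyclohydrolase one step earlier, had 138, 134 and 128 CPM with the shFabp7 partner and 125, 126 and 118 CPM with the control partner. Its groups did not overlap, yet the difference was small and missed the threshold (log2 0.12 ± 0.09, adjusted p = 0.383, 95% interval -0.08 to 0.31). The folate carrier gene Slc25a32 had 38.3, 34.1 and 37.7 CPM with the shFabp7 partner and 30.0, 29.3 and 29.4 CPM with the control partner and rose by 0.31 ± 0.06 on the log2 scale (adjusted p = 0.000157). Aldh1l2 had only 11, 12 and 24 counts with the shFabp7 partner and 22, 23 and 27 counts with the control partner, and no difference was detectable at this depth (log2 -0.58 ± 0.57, 95% interval -1.77 to 0.62). The 6 calls held under the 3 other scalings, the other filters and DESeq2, and when any 1 library was left out. Without control replicate 3 at 24 h the estimate for Psph at 48 h was 0.05 (adjusted p = 0.569).

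At 24 h fewer of these genes passed the threshold, and not all in the same direction. Shmt1 and Mthfd1 rose, Psph fell, and the other 7 did not pass the threshold, where 10.9% of all genes tested changed, 6.22% higher and 4.65% lower. Of all calls at 24 h, 57.2% were higher with TMM, against 33.2% with library totals alone and 72.7% with DESeq2. The median log2 fold change was 0.05 over the 10 genes, -0.004 over all genes and 0.03 over genes with a mean above 10 CPM. Groups did not overlap for 4 of the 10, against 27.5% of all genes.

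Shmt1 had 159, 149 and 140.0 CPM with the shFabp7 partner and 111, 123 and 108 CPM with the control partner at 24 h, with no overlap (log2 0.38 ± 0.06, adjusted p = 0.000239). Mthfd1 had 314, 304 and 297 CPM with the shFabp7 partner and 241, 269 and 258 CPM with the control partner (log2 0.25 ± 0.05, adjusted p = 0.00243). Both are cytosolic enzymes, and both calls held when any 1 library was left out. Psph had 42.4, 47.6 and 44.1 CPM with the shFabp7 partner and 49.8, 51.3 and 55.6 CPM with the control partner, a fall of 0.23 ± 0.06 on the log2 scale (adjusted p = 0.0154). That call was lost when control replicate 3 was left out (adjusted p = 0.147), and when shFabp7 replicate 1 (adjusted p = 0.151) or replicate 3 (adjusted p = 0.0754) was.

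Several genes that were high in control replicate 3 had a wide spread among the control libraries at 24 h. Shmt2 had 483, 510.1 and 454 CPM with the shFabp7 partner and 382, 399.7 and 497 CPM with the control partner, where the last value is the library that stood apart. Its log2 fold change was 0.18 ± 0.08 with all libraries (adjusted p = 0.188) and 0.32 without that one (adjusted p = 0.00117), and without a filter on low counts Shmt2 passed too (log2 0.20, adjusted p = 0.00442). Psat1 had 182, 207 and 167 CPM with the shFabp7 partner and 153, 176 and 229 CPM with the control partner, with a log2 fold change of -0.01 ± 0.14 (adjusted p = 0.982), or 0.19 without that library (adjusted p = 0.126). Mthfd2 had 126, 126 and 115 CPM with the shFabp7 partner and 109, 119 and 154 CPM with the control partner, with a log2 fold change of -0.06 ± 0.09 (adjusted p = 0.774), or 0.12 without it (adjusted p = 0.214). For both genes the sign of the estimate turned when that library was left out, and neither estimate passed the threshold. Mthfd1l overlapped, at 183, 174 and 166 CPM with the shFabp7 partner and 153, 164 and 188 CPM with the control partner (log2 0.05 ± 0.06, adjusted p = 0.678), and its estimate was 0.16 without control replicate 3 (adjusted p = 0.0943). Aldh1l2 had 12, 15 and 6 counts with the shFabp7 partner and 10, 25 and 83 counts with the control partner. Most of the Aldh1l2 counts of the control partner came from replicate 3, and the log2 fold change was -1.66 ± 0.58 with it (adjusted p = 0.0707) and -0.48 without it (adjusted p = 0.647). Leaving out control replicate 1 or 2 instead brought Aldh1l2 past the threshold (log2 -2.08 and -1.91, adjusted p = 0.00997 and 0.0354), as did using no filter on low counts (log2 -1.64, adjusted p = 0.00137). Phgdh, at 215 ± 6.46 CPM with the shFabp7 partner and 206 ± 8.33 CPM with the control partner, missed the threshold (log2 0.06 ± 0.05, adjusted p = 0.48), also without control replicate 3 (log2 0.11, adjusted p = 0.221). Slc25a32, at 59.9, 54.9 and 55.0 CPM with the shFabp7 partner and 53.0, 54.5 and 51.2 CPM with the control partner, missed it too, although its groups did not overlap (log2 0.10 ± 0.06, adjusted p = 0.323).

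**Figure D3:**
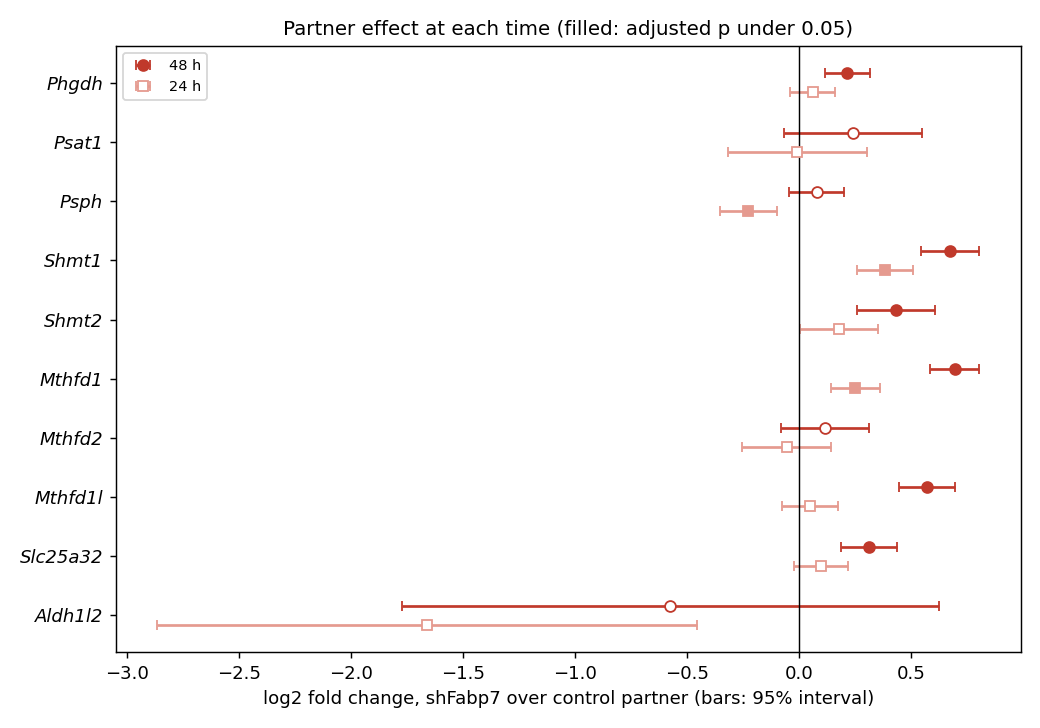
Log2 fold change of each of the 10 genes with the shFabp7 over the control partner at 48 h (dark circles) and 24 h (light squares), with 95% intervals from edgeR's fit of 12 libraries. Filled symbols passed an adjusted p of 0.05: 6 genes at 48 h, all higher, and 3 at 24 h, 2 higher and 1 lower.

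The partner effect was tested for a change between the times with an interaction contrast. All 10 point estimates were higher at 48 h, or 8 of 10 without control replicate 3 at 24 h, when those of Mthfd2 and Aldh1l2 were -0.04 and -0.12. Of the 10 genes, 4 passed (Mthfd1l, Mthfd1, Psph and Shmt1), where 4.43% of all genes tested passed in that direction, 1.17% in the other and 5.6% in either. Of all calls here, 79% were higher at 48 h with TMM and 48.9% with upper-quartile scaling. The partner effect on Mthfd1l was 0.57 ± 0.06 at 48 h and 0.05 ± 0.06 at 24 h on the log2 scale, a difference of 0.52 ± 0.09 (adjusted p = 0.000495). For Mthfd1 the difference was 0.44 ± 0.08 (adjusted p = 0.000539). Both calls held under the alternatives tried, with an adjusted p of at most 0.0114 for Mthfd1 and 0.00948 for Mthfd1l when 1 library was left out. The differences for Psph (0.30 ± 0.09, adjusted p = 0.0316) and Shmt1 (0.29 ± 0.09, adjusted p = 0.0497) were near the threshold and depended on the libraries and the settings. The Shmt1 call was lost under each of the 3 other scalings, both other filters and DESeq2 (adjusted p between 0.0566 and 0.146). The Psph call was lost with upper-quartile scaling (adjusted p = 0.119), library totals alone (0.0903) and no filter (0.0866). Without 1 library the adjusted p ranged between 0.031 and 0.219 for Psph, which lost its call in 10 of the 12 omissions. For Shmt1 it ranged between 0.00452 and 0.317, and the call was lost in 11 of the 12. The other 6 differences, between 0.16 for Phgdh and 1.09 for Aldh1l2, missed the threshold. Without control replicate 3 at 24 h those for Phgdh, Psat1 and Shmt2 were 0.08, 0.02 and 0.08 (adjusted p = 0.662, 0.95 and 0.704).

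Between 24 h and 48 h, 6 of the 10 genes fell with the shFabp7 partner, and the same 6 fell with the control partner (Phgdh, Shmt1, Shmt2, Mthfd1, Mthfd1l and Slc25a32). Over all genes tested, 30.2% fell with the shFabp7 partner and 32% with the control partner. These comparisons share no library. Psph also rose with the shFabp7 partner, so that 7 of the 10 changed there, and none rose with the control partner, where 6 changed. Of all genes 66.1% changed with the shFabp7 partner (35.9% higher) and 67.7% with the control partner (35.8% higher). The summed T cell markers given above were also lower at 48 h with each partner (5 of 8 fell and 2 rose), and the part of this was not tested. The times did not overlap for 8 of the 10 genes with the shFabp7 partner and 6 of the 10 with the control partner, against 71.4% and 68.6% of all genes. The median log2 fold change was -0.36 with the shFabp7 partner, against 0.06 over all genes, and -0.84 with the control partner, against 0.04 over all genes. Over genes with a mean above 10 CPM that median was -0.09 with the shFabp7 partner and -0.13 with the control partner. Shmt2 fell most, to 251 ± 3.16 CPM at 48 h with the shFabp7 partner, against 482 ± 28.3 CPM at 24 h (log2 -0.94 ± 0.08, adjusted p = 8.71e-09). With the control partner Shmt2 was at 186 ± 18.2 CPM at 48 h and 426 ± 62.2 CPM at 24 h (log2 -1.20 ± 0.08, adjusted p = 2.73e-10).

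With the shFabp7 partner, Mthfd1l was at 125 ± 1.47 CPM at 48 h and 174 ± 8.36 CPM at 24 h (log2 -0.48 ± 0.06, adjusted p = 2.36e-08). With the control partner it was at 83.8 ± 5.44 CPM at 48 h and 168 ± 18 CPM at 24 h (log2 -1.01 ± 0.06, adjusted p = 1.4e-15). Mthfd1 changed by -0.49 ± 0.05 with the shFabp7 partner and by -0.94 ± 0.05 with the control partner on the log2 scale (adjusted p = 5.82e-10 and 8.36e-17). For Mthfd1l and Mthfd1 the fall over time was smaller with the shFabp7 partner by the interaction test above, which is the same contrast seen from the time side. Shmt1 changed by -0.60 ± 0.06 with the shFabp7 partner and -0.89 ± 0.06 with the control partner, and Slc25a32 by -0.62 ± 0.06 with the shFabp7 partner and -0.84 ± 0.06 with the control partner. Phgdh fell by 0.24 with the shFabp7 partner (adjusted p = 7.33e-05) and by 0.39 with the control partner (adjusted p = 1.25e-08). With library totals alone the Phgdh estimate with the control partner was -0.20 (adjusted p = 0.000513). The Phgdh call with the shFabp7 partner was lost when library totals alone set the scale (adjusted p = 0.113), a scaling that shifts the median of all genes by 0.148 with this partner and by 0.189 with the control partner. It also moves the share of all calls that are higher to 66.4%, against 54.3% with TMM, and with the control partner to 67.2%, against 52.8%. Upper-quartile scaling shifts the median by 0.101 with the control partner.

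Psph, Psat1 and Mthfd2 were not lower at 48 h by the test with either partner. Psph was at 52.9 ± 1.59 CPM at 48 h and 44.7 ± 2.68 CPM at 24 h with the shFabp7 partner, a rise of 0.24 ± 0.06 on the log2 scale (adjusted p = 0.000754), or 0.39 with library totals alone (adjusted p = 2.06e-06). With the control partner its level was 50.1 ± 2.81 CPM at 48 h and 52.2 ± 3.02 CPM at 24 h (log2 -0.06 ± 0.06, 95% interval -0.18 to 0.06, adjusted p = 0.395). Mthfd2 was at 133 ± 5.15 CPM at 48 h and 123 ± 6.48 CPM at 24 h with the shFabp7 partner (log2 0.12 ± 0.09, adjusted p = 0.26), and it passed as a rise with library totals alone (adjusted p = 0.0248) and in a fit of those 2 groups (adjusted p = 0.0261). With the control partner Mthfd2 was at 123 ± 4.32 CPM at 48 h and 127 ± 23.5 CPM at 24 h (log2 -0.05 ± 0.09, 95% interval -0.25 to 0.15, adjusted p = 0.665). Psat1 had log2 fold changes of -0.08 ± 0.14 with the shFabp7 partner (95% interval -0.39 to 0.23, adjusted p = 0.648) and -0.32 ± 0.14 with the control partner (95% interval -0.64 to -0.01, adjusted p = 0.061). Psat1 passed as a fall with the control partner by DESeq2 (adjusted p = 0.0281) and without control replicate 1 at 24 h (log2 -0.43, adjusted p = 0.00146), whereas without control replicate 3 at 24 h its estimate shrank to -0.13 (adjusted p = 0.131). Aldh1l2 passed with neither partner (adjusted p = 0.754 with the shFabp7 and 0.159 with the control partner), and its log2 fold change with the control partner was -0.84 ± 0.52, or 0.34 without control replicate 3 at 24 h. Aldh1l2 did pass as a fall with the control partner without a filter on low counts (log2 -0.83, adjusted p = 0.0461) and without control replicate 1 at 24 h (log2 -1.26, adjusted p = 0.0102), so its direction there turned on which control library was left out. Without control replicate 3 at 24 h, the estimates with the control partner were 0.13 for Mthfd2 (adjusted p = 0.0558) and 0.01 for Psph (adjusted p = 0.936).

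**Figure D4:**
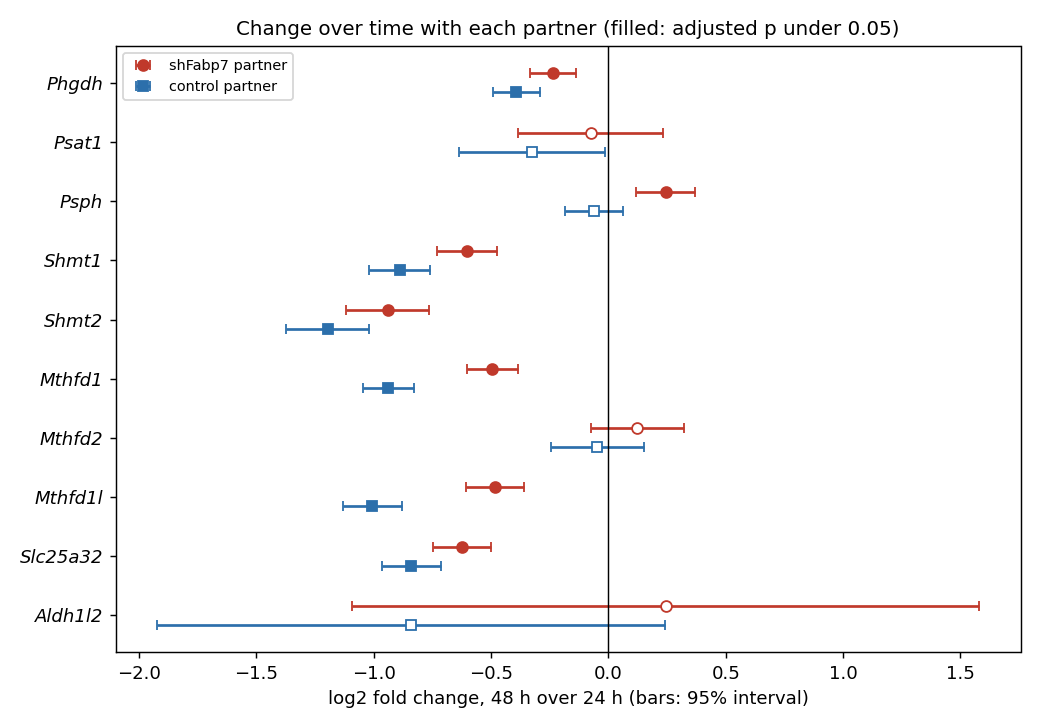
Log2 fold change of each of the 10 genes at 48 h over 24 h with the shFabp7 partner (red circles) and the control partner (blue squares), with 95% intervals from the same fit. Filled symbols passed an adjusted p of 0.05: 6 genes fell with each partner, and Psph rose with the shFabp7 partner.

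Ratios of counts within a library do not depend on scaling between libraries. At 48 h Mthfd2 per Mthfd1 was 0.647, 0.618 and 0.585 beside the shFabp7 partner and 0.867, 0.959 and 0.943 beside the control partner. At 24 h it was 0.403, 0.415 and 0.388 with the shFabp7 partner and 0.454, 0.441 and 0.596 with the control partner. The lowest 48 h ratio with the control partner was above every 24 h ratio, and shFabp7 libraries lay below control libraries at each time. Mthfd2 per Mthfd1l was 1.10, 1.07 and 1.04 with the shFabp7 partner and 1.39, 1.54 and 1.49 with the control partner at 48 h, and it overlapped between partners at 24 h. Phgdh per Shmt1 was 1.86, 1.84 and 1.88 with the shFabp7 partner and 2.26, 2.54 and 2.91 with the control partner at 48 h. At 24 h it was 1.34, 1.49 and 1.5 with the shFabp7 partner and 1.78, 1.67 and 1.98 with the control partner, again with no overlap. The mitochondrial to cytosolic ratio, Shmt2 per Shmt1, was 2.48, 2.55 and 2.64 with the shFabp7 partner and 3.07, 2.81 and 3.17 with the control partner at 48 h. At 24 h Shmt2 per Shmt1 was 3.04, 3.42 and 3.24 with the shFabp7 partner and 3.43, 3.24 and 4.59 with the control partner, and those groups overlapped. Psat1 per Shmt2, which is not drawn, overlapped between partners at both times. It was 0.668 to 0.745 with the shFabp7 partner and 0.672 to 0.884 with the control partner at 48 h. At 24 h Psat1 per Shmt2 was 0.367 to 0.406 with the shFabp7 partner and 0.402 to 0.461 with the control partner. Of 20 such comparisons (5 ratios, 4 contrasts), those without overlap had p = 0.1 by a two-sided exact permutation test, the smallest that 3 against 3 libraries allow, and 0.125 after Benjamini-Hochberg adjustment.

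**Figure D5:**
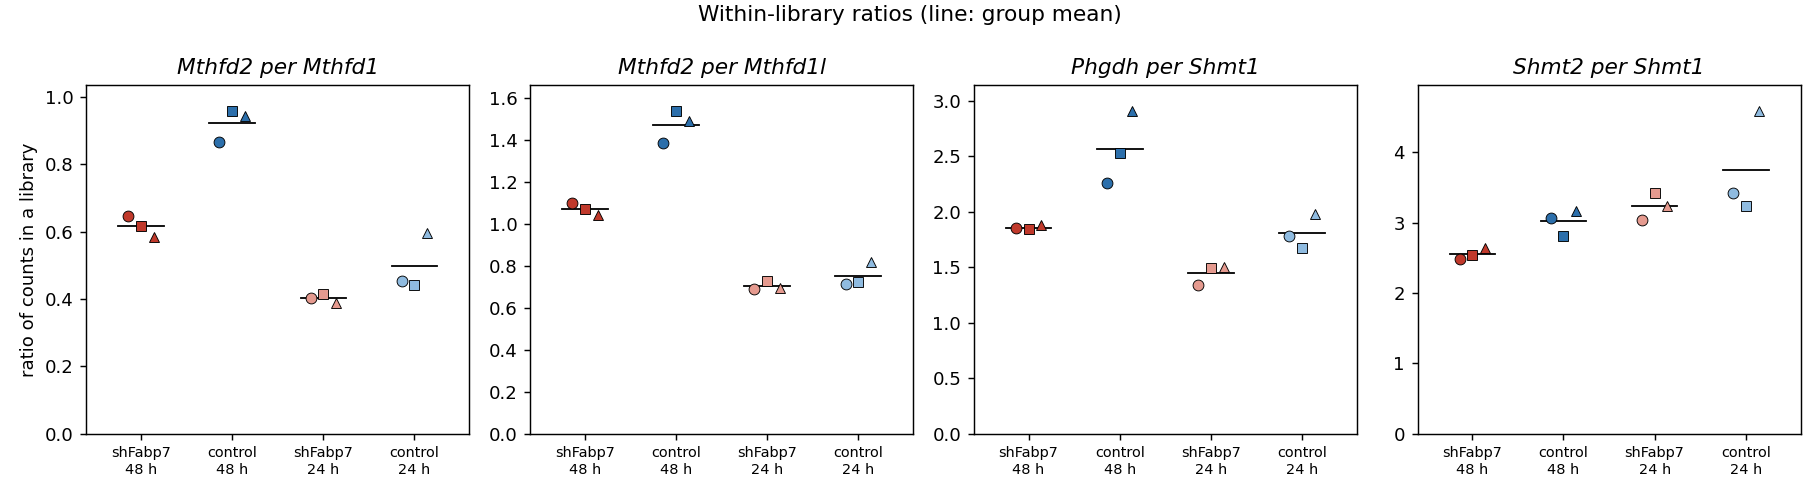
Ratios of raw counts within each library (vertical axes from 0) for 4 gene pairs, by group. Symbols are replicates and lines are means of 3 libraries. Mthfd2 per Mthfd1 lies between 0.585 and 0.647 in shFabp7 libraries at 48 h, below the 0.867 to 0.959 of control libraries.

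Over the 4 group means, each gene centred on its own mean log2 CPM, Shmt1 and Mthfd1 were each other's nearest of the 10 (root mean square difference 0.05), as were Phgdh with Psat1 (0.07) and Psph with Mthfd2 (0.07). These means include control replicate 3 at 24 h, in which Psat1, Psph and Mthfd2 were highest of all libraries, and likeness was not computed without it. Among 11339 other genes with a mean of at least 1 CPM, the profiles nearest to Phgdh were those of Anp32e, Usp16, U2af1, Ttc37 and Ubxn2a (0.01 each). Those nearest to Mthfd2 were Mllt3, Phf10, Wasf2, Prps2 and Celsr1 (0.01 each).

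The surrounding pathways were described by 5 lists, chosen with earlier results known. Of 13 tested genes of folate supply and use, 7 rose and 1 fell at 48 h with the shFabp7 partner (median log2 0.25, against 0.01 over all genes, of which 19.9% rose and 11.6% fell), and 3 rose and none fell at 24 h (median 0.12), where 6.22% of all genes rose. At 48 h 5 of the 13 rose with upper-quartile scaling or library totals alone, and at 24 h 5 rose with RLE scaling and 2 with library totals alone. Calls over all genes moved too, which holds beside the counts of every list here. At 48 h 3380 genes rose with TMM, 2125 with upper-quartile scaling and 2157 with library totals alone. At 24 h 1054 rose with TMM, 1581 with RLE scaling, 753 with upper-quartile scaling and 604 with library totals alone. Gart, which uses formyl-folate in purine synthesis, was at 339.9 ± 6.27 CPM with the shFabp7 partner and 210.4 ± 18.7 CPM with the control partner at 48 h (log2 0.69 ± 0.05, adjusted p = 3.85e-11). Atic, which uses it at a later purine step, rose by 0.56 ± 0.05 (adjusted p = 5.35e-10) and Fpgs, which traps folate in cells, by 0.55 ± 0.07 (adjusted p = 1.17e-07) on the log2 scale. Over time, 3 of the 13 rose and 3 fell with the shFabp7 partner, against 35.9% and 30.2% of all genes. With the control partner 4 rose and 6 fell, against 35.8% and 32% of all genes. With the shFabp7 partner 5 fell with RLE scaling or without control replicate 3 at 24 h, and 2 fell with upper-quartile scaling or library totals alone. Over all genes 5122 fell there with TMM, 5495 with RLE scaling, 4769 with upper-quartile scaling and 3789 with library totals alone. Tyms, the thymidylate synthase, went the other way over time from the 6 genes above. Tyms was 1.56 ± 0.07 higher at 48 h than at 24 h with the shFabp7 partner and 1.36 ± 0.07 higher with the control partner on the log2 scale (adjusted p = 2.12e-19 and 1.03e-17). Tyms was singled out after its values were seen.

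Of 10 tested genes of the methionine cycle and transsulfuration, 7 rose and 1 fell with the shFabp7 partner at 48 h (median log2 0.28), against 19.9% and 11.6% of all genes, and 5 rose with upper-quartile scaling or library totals alone. At 24 h 4 of the 10 rose and none fell (median 0.12), against 6.22% and 4.65% of all genes, and 2 rose without control replicate 3, with upper-quartile scaling or with library totals alone. Mtap, which salvages methionine, rose by 0.57 ± 0.06 at 48 h (adjusted p = 1.05e-08), Mat2a, which makes S-adenosylmethionine, by 0.46 ± 0.05 (adjusted p = 1.58e-08), and methionine synthase, Mtr, by 0.31 ± 0.06 (adjusted p = 3.77e-05). Over time 3 of the 10 rose and 4 fell with the shFabp7 partner, against 35.9% and 30.2% of all genes, and 3 rose and 5 fell with the control partner, against 35.8% and 32%. With library totals alone those counts were 5 and 4 with the shFabp7 partner, and 3 and 3 with the control partner. In the glycine list, 3 of 8 rose and 1 fell at 48 h, against 19.9% and 11.6% of all genes, and 2 rose at 24 h, against 6.22%, or 1 with upper-quartile scaling or library totals alone. Gcsh, the hydrogen carrier of glycine cleavage, rose by 0.51 ± 0.07 at 48 h (adjusted p = 2.85e-07), Gcat, of threonine breakdown to glycine, by 0.30 ± 0.07 (adjusted p = 0.000608), and Gldc, the decarboxylase of glycine cleavage, by 0.73 ± 0.19 (adjusted p = 0.00306). Gldc had 4.85, 3.88 and 4.52 CPM with the shFabp7 partner and 3.19, 2.70 and 2.09 CPM with the control partner at 48 h, and less than 1 CPM on average at 24 h with either partner. Over time 4 of these 8 rose and 4 fell with the shFabp7 partner, against 35.9% and 30.2% of all genes. With the control partner 4 rose and 3 fell, against 35.8% and 32% of all genes.

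Of 13 tested genes of serine supply, transport and use, 6 rose and 2 fell with the shFabp7 partner at 48 h (median log2 0.09), against 19.9% and 11.6% of all genes. With upper-quartile scaling or library totals alone 4 rose and 2 fell, and the median was near 0 (0.005 and 0.007). At 24 h 1 rose and 1 fell, against 6.22% and 4.65% of all genes, or 2 rose and none fell without control replicate 3, 2 rose and 1 fell with RLE scaling, and none rose and 2 fell with upper-quartile scaling or library totals alone. Pgam1, the glycolytic mutase that consumes the precursor of serine, rose by 0.62 ± 0.06 (adjusted p = 3.96e-10) and Sfxn1, which carries serine into mitochondria, by 0.39 ± 0.05 (adjusted p = 2.04e-07), whereas the related Sfxn3 had a log2 fold change of -0.32 ± 0.07 (adjusted p = 0.00022). Over time 4 of the 13 rose and 5 fell with the shFabp7 partner, against 35.9% and 30.2% of all genes. With the control partner 3 rose and 7 fell, against 35.8% and 32% of all genes. Of the 20 genes listed as ATF4 and its amino acid response targets, 2 rose and 1 fell with the shFabp7 partner at 48 h (median log2 -0.04), fewer in share than the 31.6% of all genes that changed. Without control replicate 3 at 24 h 5 rose and 2 fell, and none rose and 2 fell with upper-quartile scaling or library totals alone. At 24 h, where 10.9% of all genes changed, none of the 20 passed with all libraries, and 5 rose (Atf4, Sesn2, Slc3a2, Slc7a5 and Aars) without control replicate 3, of which Sesn2, a stress-induced inhibitor of mTORC1 signalling, changed most (log2 0.55, adjusted p = 0.000661). Slc7a5, a transporter of large amino acids, rose by 0.47 ± 0.15 at 48 h (adjusted p = 0.0378), Nars, an aminoacyl-tRNA synthetase, by 0.20 ± 0.06 (adjusted p = 0.0119), and the stress factor Ddit3 fell, with a log2 fold change of -0.46 ± 0.07 (adjusted p = 9.22e-06). Over time 4 of the 20 rose and 10 fell with the shFabp7 partner, against 35.9% and 30.2% of all genes. With the control partner 4 rose and 15 fell, against 35.8% and 32% of all genes. With library totals alone 4 rose and 7 fell with each partner, and without control replicate 3 at 24 h 5 rose and 14 fell with the shFabp7 partner and 5 rose and 13 fell with the control partner. Atf4 itself was at 209 ± 6.98 CPM with the shFabp7 partner and 195 ± 2.14 CPM with the control partner at 48 h, and 316 ± 17.2 CPM with the shFabp7 partner and 297 ± 25.9 CPM with the control partner at 24 h, and was not called between partners with all libraries (adjusted p = 0.202 at 48 h and 0.317 at 24 h).

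Markers of other cells were low, and their part in the differences above was not tested. The summed CPM of the B cell list (6 genes) was 19 to 20.1 with the shFabp7 partner and 19 to 22.5 with the control partner at 48 h, and 11.1 to 14.3 with the shFabp7 partner and 12.8 to 14.5 with the control partner at 24 h. The monocyte and macrophage list (6 genes) had 13.5 to 15.2 CPM with the shFabp7 partner and 13.9 to 16.7 CPM with the control partner at 48 h, and 11.2 to 12.4 CPM with the shFabp7 partner and 13.3 to 15.2 CPM with the control partner at 24 h, where the partners did not overlap. The dendritic cell list (6 genes) was at 23.9 to 25.3 CPM with the shFabp7 partner and 23.7 to 27.8 CPM with the control partner at 48 h, above the 9.13 to 11.1 CPM of all 24 h libraries. Both this list and that of B cells stood higher at the later time with either partner. Most of the dendritic cell sum was Zbtb46 and Itgax (means of 9.90 and 5.82 CPM over all libraries), with Xcr1, Siglech and Clec9a each below 1 CPM on average. The neutrophil list (6 genes, with Retnlg at 0 in all libraries) was at 1.90 to 3.57 CPM with the shFabp7 partner and 3.16 to 8.47 CPM with the control partner at 48 h, and 6.47 to 8.49 CPM with the shFabp7 partner and 6.36 to 11.4 CPM with the control partner at 24 h. The epithelial list (5 genes) was at 4.10 to 5.25 CPM with the shFabp7 partner and 6.22 to 7.0 CPM with the control partner at 48 h, and 9.48 to 10.3 CPM with the shFabp7 partner and 10.9 to 11.9 CPM with the control partner at 24 h. Epithelial sums did not overlap between partners at either time and were lower beside the shFabp7 partner. Most of the epithelial sum was Epcam and Cdh1 (means of 3.73 and 3.64 CPM over all libraries), with Krt8, Krt18 and Krt19 each below 1 CPM on average. The fibroblast list (6 genes) was between 4.63 and 5.99 CPM at 48 h and between 1.71 and 2.30 CPM at 24 h, and the red cell list (4 genes) below 1 CPM in every library. The NK cell list (4 genes) summed to between 137 and 163 CPM, nearly all of it Eomes, which T cells also express. Between partners at 48 h, the genes called in these lists were 2 of 4 tested neutrophil, 1 of 5 monocyte, 1 of 3 NK and 1 of 3 epithelial genes. All were lower beside the shFabp7 partner, where 11.6% of all genes were lower. None was called of 6 B cell, 3 dendritic cell and 4 fibroblast genes tested. At 24 h 1 of the 4 neutrophil genes was lower and no other gene of these lists was called, where 4.65% of all genes were lower.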

How the data were processed

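RNA-seq of T cells was deposited by the authors as whole-number read counts per gene symbol, not normalized, for 53762 symbols in 12 libraries. The tools were HTSeq 0.6.1p1, TopHat2 2.0.13 and CASAVA 1.8.2 with build GRCm39, per the submitters' processing notes, and their settings, the annotation and the strand mode are not given in the sources used here. Totals were 31.9 M to 40.6 M counts.

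Genes were kept with edgeR's filterByExpr (minimum count 10, minimum total 15), which left 16945. Libraries were scaled by TMM, and edgeR 4.0.16 quasi-likelihood tests (R 4.3.3, robust, 12 libraries in 1 fit) gave log2 fold changes ± SE and p-values with Benjamini-Hochberg adjustment over all 16945 genes (threshold 0.05). Every adjusted p is from this test unless DESeq2 1.42.0 is named. The procedure was tested on simulated data. No 2 libraries of a group agreed within sampling noise (chi-square over its degrees of freedom between 4.34 and 14.2). Levels are CPM ± SD. The genes and lists were chosen with earlier results of these data known, and of each list up to 3 genes with the lowest p between partners at 48 h were named. Markers of 9 cell types were summed. Same-numbered libraries showed no strong shared deviation (correlations -0.067 to 0.0101), so pairing was not used in the main fit. These correlations cannot exclude a pairing, and the labels do not say what the numbers stand for. Alternatives were RLE and upper-quartile scaling, library totals alone, no filter, a stricter filter (1 CPM in 3 libraries, total 100), DESeq2, the compared groups only, a replicate block and omission of each library. The counts of list genes without control replicate 3 at 24 h or under other scalings were added after seeing the data. One result is not reported here.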

Additional observations from a re-analysis of the deposited data

Results flagged for a closer look

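The partner effect differed between the times, by the interaction test, for 4 of the 10 genes. By that test 5.6% of all genes tested differed, 4.43% with the higher effect at 48 h. On the log2 scale the effect at 48 h exceeded that at 24 h by 0.52 for Mthfd1l, 0.44 for Mthfd1, 0.30 for Psph and 0.29 for Shmt1. For Mthfd1l and Mthfd1 this held when any 1 library was left out. For Psph and Shmt1 it was lost in 10 and 11 of the 12 omissions, the control replicate 3 at 24 h among them (adjusted p = 0.219 for Psph and 0.0846 for Shmt1). With 3 libraries a group, single libraries were not tested as outliers.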

How the results depend on the processing

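Over all 10 genes, 5 comparisons and the alternatives there were 985 values, of which 915 kept their direction and side of the threshold, 13 passed it newly, 34 lost it and 23 turned sign. The replicate block changed no call of the 10 genes (6 between partners at 48 h, 3 at 24 h, 7 over time with the shFabp7 and 6 with the control partner, 4 for the interaction) and gave 5195, 1777, 11120, 11388 and 862 calls over all genes. What those replicate numbers stand for is not labelled. Without a filter, 5 of the 10 genes passed between partners at 24 h, with 2214 calls over all genes, against 1842 in the main fit. For the interaction 2 passed with upper-quartile scaling, library totals alone or no filter, and 2 to 4 when 1 library was left out. Those 3 settings gave 697, 721 and 824 interaction calls over all genes, against 949 in the main fit. Leaving out 1 library gave between 2 and 4 of the 10 at 24 h, 949 (control replicate 1 at 24 h; 1045 without shFabp7 replicate 1 at 24 h) to 2525 (control replicate 2 at 24 h) calls over all genes at 24 h, and 319 (shFabp7 replicate 2 at 24 h) to 1680 (control replicate 1 at 48 h) for the interaction, where every omission but that of control replicate 1 at 24 h moved the count by over 1.5 times. No value that turned sign had passed the threshold with all libraries. Between partners at 24 h, Psat1 was 0.0182 (log2) with RLE scaling, 0.0156 without a filter and 0.0188 with DESeq2, and -0.12 to 0.19 when 1 library was left out. In the same comparison that range was -0.14 to 0.12 for Mthfd2 and -0.00198 to 0.16 for Mthfd1l. At 48 h, Psph was -0.00802 with upper-quartile scaling and -0.00648 with library totals alone. Over time with the shFabp7 partner, Psat1 was 0.0721 with library totals alone and Aldh1l2 -0.24 to 0.54 over the omissions. With the control partner, Psph was 0.0417 and 0.13, and Mthfd2 0.052 and 0.14, under upper-quartile scaling and library totals, and omissions gave -0.0949 to 0.00674 for Psph, -0.13 to 0.13 for Mthfd2 and -1.26 to 0.34 for Aldh1l2. For the interaction, omissions gave -0.0368 to 0.23 for Mthfd2 and -0.12 to 1.48 for Aldh1l2. The causes of these changes were not tested. The stricter filter removed Aldh1l2, which has at most 83 counts in a library.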
